A study of Rattus norvegicus with 6 samples.

Results

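Genes with many listed stretches of N6-methyladenosine (m6A) signal were examined in the penile tissue of fetal rats. They were chosen by the measured number of listed m6A intervals, from 11 to 50 for each Ensembl gene ID. This gave 102 of the 13146 genes in the list, or 0.776%. Although the upper limit was 50, the counts found ran from 11 to 24. The 1 gene beyond the limit had 51 intervals and lies outside the set. The 102 genes were set beside the 4397 genes with 3 to 10 intervals, and the remaining 8646 genes had 1 or 2.

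The samples were 3 from case fetuses and 3 from control fetuses of Sprague-Dawley rats. Per the design text, dams were given the plasticizer di-(2-ethylhexyl) phthalate (DEHP), which counteracts androgens, or corn oil alone by daily gavage between gestational days 12 and 19, and fetuses were delivered by cesarean section on GD19.5 (GD, gestational day). The same text says that the tissue for sequencing came from male fetuses with hypospadias, in which the urethra opens on the underside of the penis, and from normal males. The titles say only case and control, the dose is not in the labels, and the sources used here do not say whether a sample is 1 fetus or pooled tissue. The table holds positions and gene IDs for the whole series, with 0 columns of values per sample. The following therefore describes where intervals lie, over case and control together, and no gene is compared between the groups. Tissue markers could not be checked for the same reason, and the number of reads behind an interval is unknown.

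As background, m6A is laid on nascent messenger RNA by a methyltransferase complex whose catalytic subunit is METTL3, which works with METTL14. FTO and ALKBH5 can remove it, and proteins with a YTH domain bind it and influence the decay, splicing and translation of the transcript. In mammals m6A is known to be frequent in long internal exons and near stop codons, and the exon junction complex keeps it away from splice junctions, so short exons carry little. MeRIP-seq enriches fragmented RNA with an antibody against m6A. It locates methylation to stretches of RNA, not to single adenosines.

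The 102 genes held 1380 assignments of an interval to a gene, 4.31% of the 31999 in the list. These came from 1302 distinct intervals, 4.45% of all 29268. Each gene had 13.5 intervals on average (SD 2.85, n = 102 genes), and the median was 13. Exactly 11 intervals were listed for 27 genes, 12 for 20 and 13 for 17. Only 8 genes had 18 or more, with 24 as the highest count. These counts are what chose the genes and are given as a description.

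The table pairs gene IDs with no symbols, and the gene table at hand, from RefSeq for assembly GRCr8, holds 0 Ensembl IDs, so the genes are given by ID and their protein products are not named. The file's starts were taken to count from 0, so 1 was added to each, and its ends are unchanged. The file states no genome build. The submitters' processing notes name Rnor_6.0. As background, the highest interval end on chromosome 10, 107201929, lies close to the end of that chromosome in the later assembly mRatBN7.2 and well short of its end in Rnor_6.0, so the build is unsettled. Intervals were not placed in exons, introns or untranslated regions, and no sequence was read.

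The gene with the most intervals in the set was ENSRNOG00000057569, with 24 in 15.9 kb on the plus strand of chromosome 1, between 205894829 and 205910753. The narrowest was 75 bp and the widest 1050 bp, with a median of 300 bp, and together they covered 50.7% of the span. Every gap between neighbours was a multiple of 25 bp, and the widest gap was 1125 bp. The intervals were spread along the whole stretch. Those between the outermost 2 had a mean position of 0.516. Here 0 is the midpoint of the 5'-most interval and 1 the midpoint of the 3'-most.

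ENSRNOG00000014509, on the plus strand of chromosome 15 between 35345454 and 35369758, held 23 intervals in 24.3 kb. It had a different layout from that of the first gene. The first 4 intervals lay within the first 900 bp, a gap of 11380 bp followed, and the other 19 lay within the last 12.0 kb. Neighbours among those 19 were never off the 25-bp grid, whereas the gap of 11380 bp was no multiple of 25.

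ENSRNOG00000025808, on the minus strand of chromosome 9 between 15320432 and 15496054, also held 23 intervals, in a span of 176 kb. Its intervals were narrow, with a median of 175 bp, and covered 3.02% of the span. They fell into 13 runs that did not share a grid, the longest with 4 intervals, and 21 of the 23 were also assigned to another gene. ENSRNOG00000012207, on the plus strand of the same chromosome between 36342458 and 36528617, held 22 intervals in 186 kb, of which 10 lay in a run of 5.08 kb. ENSRNOG00000008765, on the minus strand of chromosome 2 between 96224992 and 96385804, held 20 intervals in 161 kb, and a single interval of 71518 bp took a large part of that distance. The 5 genes with the most intervals thus ranged from 15.9 to 186 kb in span, and the count alone did not fix the layout.

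**Figure D1:**
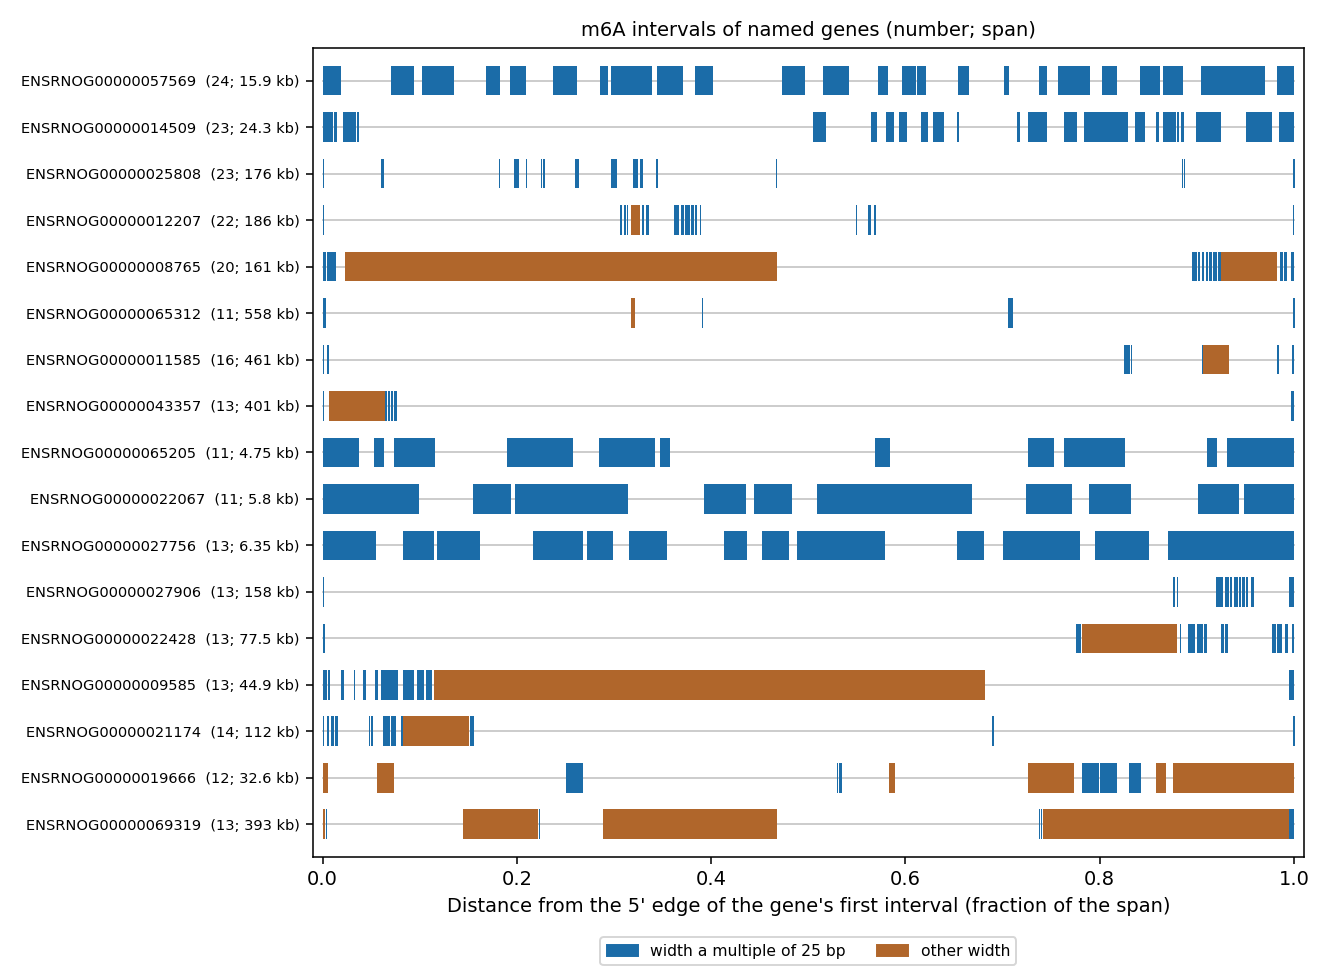
Intervals of 17 genes named by rule, drawn from the 5' edge of each gene's first interval to the 3' edge of its last, to scale within a gene apart from a minimum drawn width for very narrow intervals. Blue marks widths that are multiples of 25 bp and brown other widths. The number of intervals and the span stand beside each ID, and the layouts range from even tiling (ENSRNOG00000057569) to clusters at an end (ENSRNOG00000009585).

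The stretch occupied by the intervals varied widely among the 102 genes. The span, from the lowest start to the highest end, had a median of 61.9 kb (95% interval of the median 41.3 to 86.9 kb), with quartiles of 26.0 and 147 kb. In the 4397 genes with 3 to 10 intervals the median was 14.1 kb (13.148 to 15.015 kb). A larger number of points tends to give a larger span by construction, so this difference is a description only. Spans of up to 10 kb were found in 7 of the 102 genes (6.86%, 95% Wilson interval 3.36 to 13.5) and in 1869 genes with 3 to 10 intervals (42.5%). Spans over 100 kb were found in 37 of the 102 (36.3%, 27.6 to 45.9) and in 450 of the others (10.2%). Within the 102 genes the number of intervals and the span were nearly unrelated (Spearman's rho 0.12, Pearson's r 0.05, across genes of 1 list, which are not replicates). The rule confined these genes to a narrow range of counts, which can weaken a correlation. In the genes with 3 to 10 intervals Spearman's rho was 0.24.

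The largest span belonged to ENSRNOG00000065312, on the minus strand of chromosome 2 between 139781271 and 140339567. Its 11 intervals were spread over 558 kb and covered 0.991% of it. ENSRNOG00000011585, on the minus strand of chromosome 8 between 12695844 and 13156963, had 16 intervals over 461 kb, with 1 gap of 377711 bp that made up 81.9% of the span. ENSRNOG00000043357, on the minus strand of chromosome 18 between 77571954 and 77972910, had 13 intervals over 401 kb, and its widest gap made up 92.1%. In these last 2 genes most of the span was thus 1 empty stretch.

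At the other extreme, ENSRNOG00000065205, on the plus strand of chromosome 17 between 2288532 and 2293281, packed 11 intervals into 4.75 kb, or 2.32 per kb. ENSRNOG00000022067, on the plus strand of chromosome 13 between 94651906 and 94657705, packed 11 into 5.80 kb and covered 68.1% of it. ENSRNOG00000027756, on the minus strand of chromosome 11 between 56476547 and 56482896, packed 13 into 6.35 kb. In all 3 every width and every gap was a multiple of 25 bp.

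**Figure D2:**
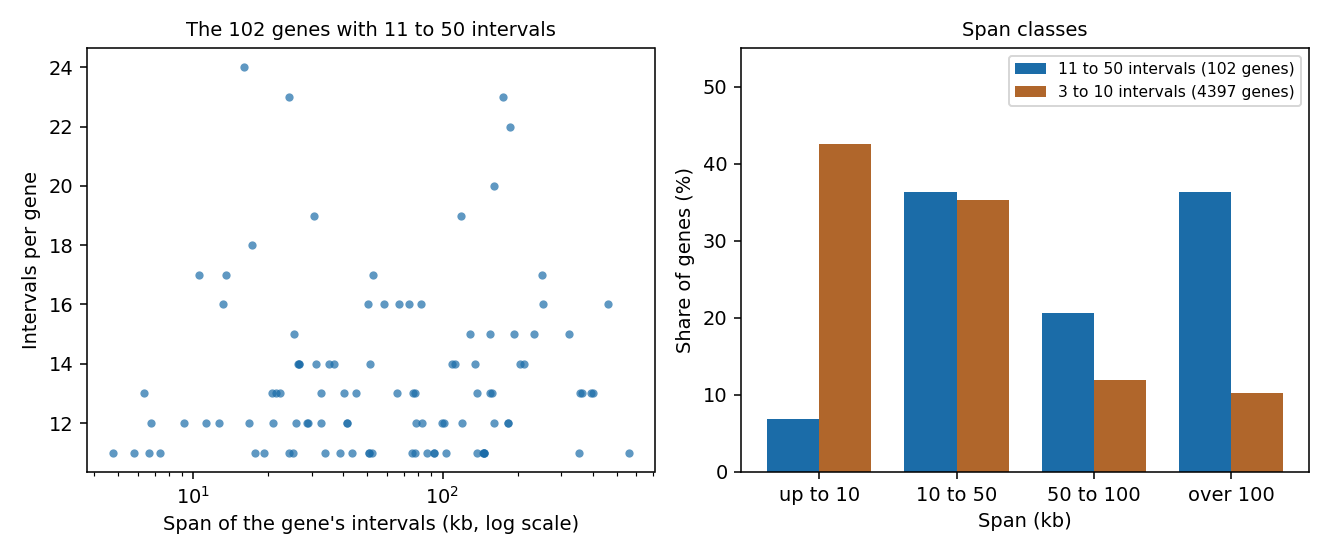
Left, intervals per gene against the span in kb (log scale) for the 102 genes, 1 point a gene. Right, the share of genes in 4 span classes, with the 102 genes in blue and the 4397 genes with 3 to 10 intervals in brown. Spans up to 10 kb made up 6.86% of the 102 genes and 42.5% of the others.

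Density, the number of intervals per kb of span, had a median of 0.217 in the 102 genes (95% interval 0.142 to 0.320) and 0.286 in genes with 3 to 10 intervals (0.270 to 0.312). Among the 102 it ran from 0.0197 to 2.32 per kb. The order of the medians depended on the span. Among genes spanning at most 50 kb the density was 0.578 per kb in 44 of the 102 genes and 0.493 per kb in 3420 of the others. The number of intervals enters the density, so it carries no test.

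Gaps between neighbouring intervals had a median of 300 bp (95% interval 275 to 325, 1278 gaps) in the 102 genes and 375 bp (350 to 375, 14078 gaps) in the others. Of the gaps, 26.1% (23.7 to 28.5) in the 102 genes and 24.4% (23.7 to 25.1) in the others were at most 100 bp. The lowest gap was 0 in both, so not every listed interval stood apart from the next. With intervals up to 100 bp apart joined first, 42 genes held 11 to 50. Gaps of at most 200 bp made up 42.0% (39.3 to 44.7) in the 102 genes and 38.6% (37.8 to 39.4) in the others. Gaps over 5000 bp made up 16.4% (14.5 to 18.6) in the 102 genes and 23.4% (22.7 to 24.1) in the others. Neighbours in the 102 genes thus mostly lay within 1 kb, with fewer gaps that were far wider. The widest gap of a gene took a median of 39.5% of the span in the 102 genes and 56.7% in the others. With more gaps per gene, a smaller share for the widest is a matter of arithmetic.

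Median widths were much alike in both sets, while wide intervals were less frequent in the 102 genes. The median was 250 bp (95% interval 225 to 250) over the 1380 assignments and 272 bp (250 to 275) over the 18475 of genes with 3 to 10 intervals. Among whole-step widths, those that are multiples of 25 bp, the medians were 225 bp in both. The frequent width of 175 bp made up 13.04% (11.4 to 14.9) in the 102 genes and 10.2% (9.74 to 10.6) in the others. The narrowest width, 50 bp, made up 9.71% (8.26 to 11.4) in the 102 genes and 8.21% (7.82 to 8.61) in the others. Widths over 1000 bp made up 7.61% (6.32 to 9.13) in the 102 genes and 12.9% (12.4 to 13.3) in the others. Wilson intervals cover counting error only, and assignments of 1 gene are not independent.

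Whole-step widths took a larger share of assignments in the 102 genes, while fewer of the genes had nothing else. They made up 1257 of 1380 assignments, 91.1% (95% Wilson interval 89.5 to 92.5), and 82.6% (82.0 to 83.1) in genes with 3 to 10 intervals. Genes in which every width was whole-step were 29 of the 102 (28.4%, 20.6 to 37.8) and 2107 of the others (47.9%), and with more intervals per gene fewer can be without an exception. No test was run, since the set was chosen on its counts and the genes of 1 list are not replicates. The share of assignments was higher in the 102 genes in each of 4 classes of span. It was 100% of 81 assignments against 86.5% of 7232 for spans up to 10 kb, and 92.5% against 79.5% from 10 to 50 kb. From 50 to 100 kb it was 89.4% against 79.2%, and over 100 kb 89.2% against 82.6%.

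Below the limit of 11 this share was already higher in genes with more intervals. It was 71.9% in genes with 1 interval, 79.4% with 3, 83.5% with 5 and 87.3% with 8 or 9. On the near side of the limit, genes with exactly 11 intervals had 91.2% (87.5 to 94.0, 297 assignments), and on the far side genes with exactly 10 had 85.7% (82.3 to 88.5, 490 assignments). Genes with 12 had 85.8%, and those with 15 to 24 had 93.6% (91.0 to 95.5). The values at 10, 11 and 12 overlap in their intervals. The median span was 52.0 kb in the 27 genes with 11 intervals and 48.0 kb in the 49 genes with 10.

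**Figure D3:**
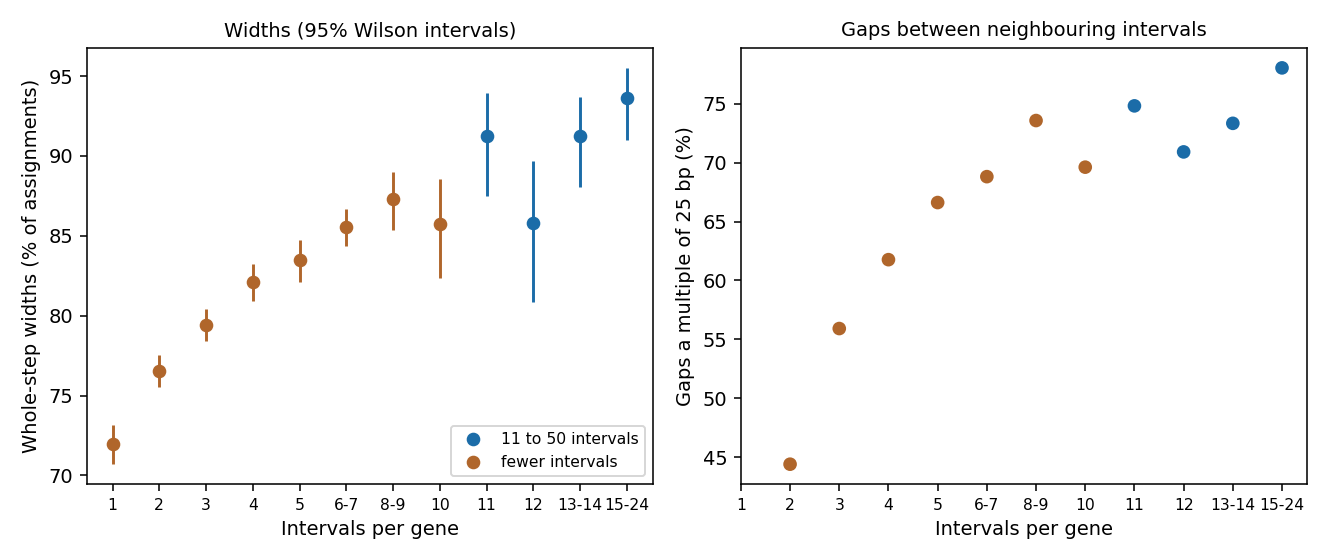
Left, the share of assignments with a whole-step width by number of intervals per gene, with 95% Wilson intervals. Right, the share of gaps that are multiples of 25 bp, which starts at 2 intervals. Blue points are genes with 11 or more intervals and brown points genes with fewer. The share on the left climbs from 71.9% at 1 interval to 93.6% at 15 to 24.

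The 123 intervals of other widths in the 102 genes were long, with a median of 2059 bp (95% interval 1177 to 3829) and a highest value of 125252 bp. In genes with 3 to 10 intervals the median of such widths was 1695 bp (1569 to 1860). Intervals wider than 10000 bp were 2.03% of assignments in the 102 genes and 2.80% in the others. At least 1 of them was present in 25 of the 102 genes (24.5%, 17.2 to 33.7) and in 10.9% of the others, which have fewer intervals each. The widest whole-step width in the 102 genes was 3025 bp, whereas genes with 3 to 10 intervals reached 90100 bp. These are the highest of 1257 and of 15257 assignments, and the quartiles were 125 and 375 bp in both sets.

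Toward higher coordinates, the 25-bp grid ran on from the end of such an interval and not from its start. Start and end are the lower and higher coordinates on either strand, and the next neighbour is the one at higher coordinates. A distance from the end that is a multiple of 25 bp excludes such a distance from the start, because these widths are not multiples. The gap below the start was not examined in this way. After 25 intervals of other widths whose next neighbour lay at most 200 bp away, the next start was a multiple of 25 bp from the interval's end in 23 (92.0%) and from its start in 0. For neighbours over 200 and up to 1000 bp away, 19 of 27 (70.4%) continued from the end and 1 from the start. In genes with 3 to 10 intervals the shares at most 200 bp away were 86.0% from the end and 8.05% from the start, of 584. After whole-step widths, end and start give the same answer. There 98.6% of 512 pairs at most 200 bp apart in the 102 genes kept the grid. Of 173 pairs over 5000 bp apart 3.47% did, where chance gives 4%. For pairs over 1000 and up to 5000 bp apart in the 102 genes, 60 of 131 (45.8%) kept it after whole-step widths. After other widths 0 of 16 at that distance did.

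Neighbours with a gap that is a multiple of 25 bp and at most 5000 bp were read as 1 run. The limit takes in gaps over 1000 bp, where fewer pairs kept the grid. In the 102 genes 74.8% of gaps (72.4 to 77.1) were multiples of 25 bp, and in the others 63.6% (62.8 to 64.4). A gene of the 102 had a median of 4 runs. Its longest run had a median of 7.5 intervals, between 2 and 24, and a length of 5.24 kb (95% interval 4.33 to 6.35). In genes with 3 to 10 intervals the longest run had a median of 3 intervals and 1.45 kb. A run of at least 10 intervals was found in 35 of the 102 genes (34.3%) and in 4 of the others, where only genes with exactly 10 could have one.

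The longest run held at least 50% of the gene's intervals in 60 of the 102 genes (58.8%, 49.1 to 67.9). Genes with 3 to 10 intervals did so more often, in 3607 of 4397 (82.0%), where 2 of 3 or 4 intervals on 1 grid are enough. In 15 of the 102 genes (14.7%, 9.12 to 22.9) the longest run did so within at most 10% of the span, and in 31.1% of the others. This criterion, too, asks for fewer intervals on 1 grid in genes with 3 to 10 intervals, so the lower share is a description only. The longest run took a median of 9.23% of the span (95% interval 6.28 to 15.5) in the 102 genes. In the others it took 12.9% (11.6 to 14.1). ENSRNOG00000027906, on the minus strand of chromosome 19 between 50940424 and 51098896, is 1 of the 15. A first interval of 175 bp stood alone, 138580 bp upstream of the next, and 9 of the 13 intervals followed in a run of 6.25 kb near the 3' end. Its mean position of 0.930 was the highest of the set.

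The longest run was the whole stretch in 11 of the 102 genes (10.8%, 6.13 to 18.3) and in 1078 of the others (24.5%). Of the 11, 7 had only whole-step widths (6.86% of the 102 genes, against 17.4% of the others), among them ENSRNOG00000057569 and the 3 genes with the smallest spans. The spans of all 11 ran from 4.75 kb to 75.4 kb. The longest, that of ENSRNOG00000016246 on the minus strand of chromosome 18, was long because of 1 interval of 70936 bp, not a whole-step width. That gene was chosen for mention after its values were seen. In the rest of the 102 the longest run lay at the 5' end in 26 genes (25.5%), at the 3' end in 28 (27.5%) and inside in 37 (36.3%). In genes with 3 to 10 intervals it lay at the 5' end in 30.1%, at the 3' end in 37.4% and inside in 7.94%. Fewer intervals leave less room for a place inside. Among runs with equally many intervals, the one at the lowest coordinates was taken. That favours the 5' end on the plus strand and the 3' end on the minus strand over a place inside. Such ties were not counted, so the shares by place depend on this choice to an unknown degree. In the 102 genes the runs at the 5' end had a median of 8.5 intervals and 7.42 kb, those at the 3' end 6 intervals and 4.11 kb, and those inside 6 intervals and 4.33 kb.

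**Figure D4:**
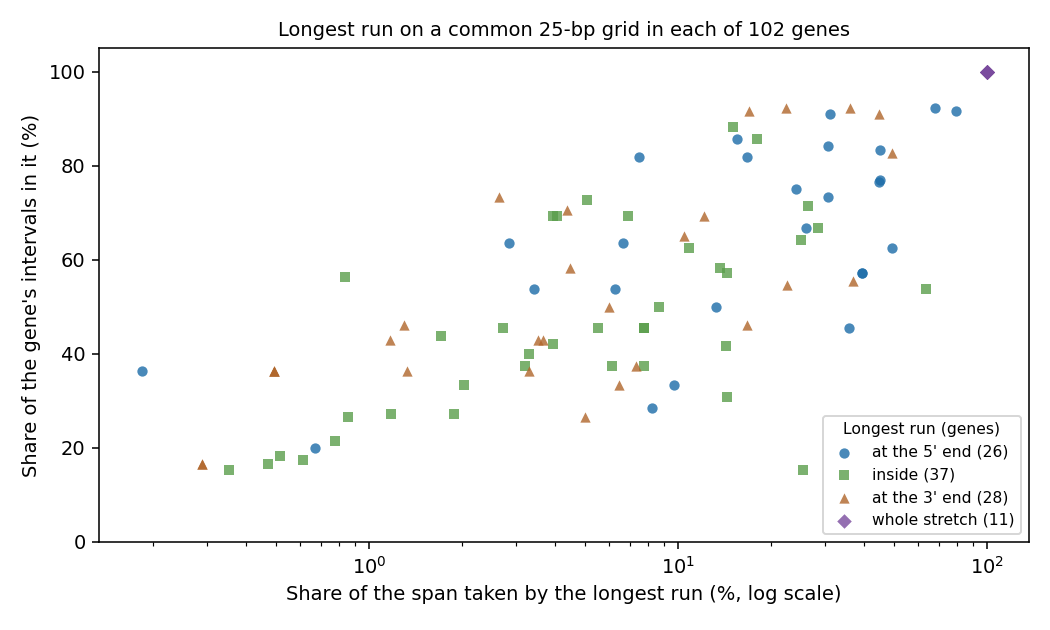
The longest run on a common 25-bp grid in each of the 102 genes: its share of the span (log scale) against its share of the gene's intervals. Colour and shape give its place. Points at or above 50% are the 60 genes whose longest run holds at least 50% of the intervals. The 11 diamonds at 100% are genes with a single run.

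Along the gene, interior intervals (all but the outermost at each end) were close to balanced in the 102 genes. Their mean position was 0.507 (SD 0.210, n = 102 genes), and it lay above 0.5 in 54 genes and below in 48. In genes with 3 to 10 intervals the mean was 0.555 (SD 0.295, n = 4397 genes). The 95% intervals of the means, 0.466 to 0.547 in the 102 genes and 0.546 to 0.563 in the others, barely met, and the difference of -0.048 was not tested. A mean near the middle was not particular to the set. Genes with exactly 10 intervals had 0.481 (n = 49 genes), and those with exactly 11 had 0.470 (n = 27 genes). The 26 genes of the set with at least 15 intervals had 0.543, close to the 0.555 of the others. On the plus strand 22 of 46 genes of the set lay above 0.5, and on the minus strand 32 of 56. A position averaged over more intervals varies less from gene to gene, which bears on the SDs.

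The distance between the midpoints of a gene's outermost intervals was divided into 10 equal parts. The last, at the 3' end, held 20.3% (18.1 to 22.7) of the 1176 interior intervals of the 102 genes and 24.8% (23.97 to 25.7) of the 9681 in the others. The first, at the 5' end, held 18.9% (16.7 to 21.2) in the 102 genes and 17.5% (16.8 to 18.3) in the others. Each of the 8 parts between held from 5.78% to 9.86% in the 102 genes. Both ends were thus filled to a like degree in the 102 genes, in shares whose intervals overlap.

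**Figure D5:**
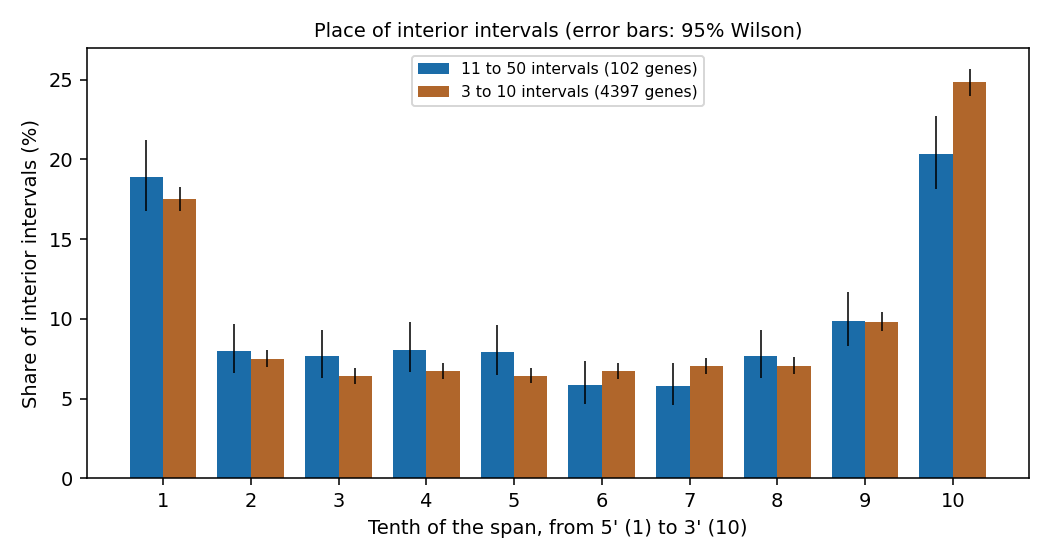
Share of interior intervals in each of 10 equal parts, from 5' (1) to 3' (10), for the 102 genes (blue) and the 4397 genes with 3 to 10 intervals (brown), with 95% Wilson intervals. The parts divide the distance between the midpoints of the outermost intervals, which the axis label calls the span. At the 3' end the bars stand at 20.3% and 24.8%, and at the 5' end at 18.9% and 17.5%.

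Whole-step widths were about as frequent at both ends. They were found for the 5'-most interval of 88 of the 102 genes (86.3%, 78.3 to 91.6) and for the 3'-most of 90 (88.2%, 80.6 to 93.1). In genes with 3 to 10 intervals the shares were 74.6% (73.2 to 75.8) at the 5' end and 84.9% (83.8 to 85.9) at the 3' end. The 2 sets thus stood 11.7 percentage points apart at the 5' end and 3.36 at the 3' end, and this was not tested.

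A few genes had positions far from the middle. ENSRNOG00000009585, on the minus strand of chromosome 7 between 113954089 and 113999029, had the lowest, 0.0873. Its first 11 intervals lay within 5075 bp of its 5' edge, and were followed by an interval of 25479 bp, a gap of 14062 bp and a last interval of 250 bp.

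The next lowest and the next highest positions came from the same intervals. ENSRNOG00000021174, on the plus strand of chromosome 1 between 204275892 and 204388117, held 14 intervals and had a position of 0.114. ENSRNOG00000022428, on the minus strand between 204275892 and 204353432, held 13 and had a position of 0.911. All 13 were among the 14 of the first gene, so a cluster at one end of the region was read as 5' for 1 gene and as 3' for the other. A table without strand for the intervals does not tell which of the 2 genes carried the signal.

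Sharing of intervals was uneven. At least 1 interval was shared with another gene in 35 of the 102 genes (34.3%, 25.8 to 43.9) and in 1080 of the genes with 3 to 10 intervals (24.6%), which have fewer intervals to share. Every interval was shared in 13 of the 102 (12.7%, 7.60 to 20.6) and in 9.03% of the others, which lies inside that interval. The other 67 of the 102 shared none. Of the assignments, 314 (22.8%, 20.6 to 25.04) were shared, and in genes with 3 to 10 intervals 17.0% (16.5 to 17.6). The order turned among genes spanning at most 50 kb, with 15.6% in the set and 18.5% in the others. Among the 26 genes of the set with at least 15 intervals the share was 13.4%, also below that of the others. The 314 assignments came from 236 distinct intervals, of which 131 (55.5%) were assigned to genes on both strands, and 80 genes outside the set were partners.

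Several of the 102 IDs described the same stretch. ENSRNOG00000003971, ENSRNOG00000070572 and ENSRNOG00000070896 on the minus strand of chromosome 10 had the same 11 intervals. The same was true of the pair ENSRNOG00000000785 and ENSRNOG00000062809 on chromosome 20, with 14, and of 2 pairs on chromosome 8, with 12 and 11. Counting each list of intervals once left 97. ENSRNOG00000067845 and ENSRNOG00000069319 on the minus strand of chromosome 9, each with 13 intervals, had 6 in common. ENSRNOG00000069319, between 113674617 and 114067291, had the next lowest share of whole-step widths, 8 of 13 (61.5%), and intervals of up to 99242 bp covered 51.6% of its 393 kb.

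The lowest share of whole-step widths was that of ENSRNOG00000019666, on the plus strand of chromosome 1 between 205765342 and 205797967, with 6 of 12. Of its 12 intervals 10 were shared. Its widest interval, 4048 bp, was the last one at the 3' end. It lies 96.9 kb upstream of ENSRNOG00000057569, the gene with 24 intervals, whose widths were all whole-step and none of whose intervals was shared. Neighbours in the genome could thus differ in form.

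The genes lay on all 20 autosomes, with 13 on chromosome 2 (12.7%, 7.60 to 20.6), 11 each on chromosomes 1 and 8 (10.8%, 6.13 to 18.3) and 9 on chromosome 10. Genes with 3 to 10 intervals were on chromosome 2 in 5.69% (5.04 to 6.41), on chromosome 8 in 5.53%, on chromosome 1 in 12.7% and on chromosome 10 in 8.48%. The 13 genes of chromosome 2 are 1.47% of its 883 genes in the list, against 0.776% over all genes. This share was higher on chromosome 18 (1.78% of 337 genes) and chromosome 8 (1.54% of 713). Chromosome 6 had 1 gene of the set. Chromosomes were not tested, and 5 of the 102 IDs repeat another's intervals, 2 of them on chromosome 8 and 2 on chromosome 10.

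No gene of the set lay on X, Y or the mitochondrial genome. A count of 0 of 102 allows a share on X of up to 2.94% by the rule of 3 counts (3.63% as the upper Wilson limit), and X held 2.48% of genes with 3 to 10 intervals, inside both limits. With the lower limit of the set at 9 intervals, 1 of 227 genes lay on X (0.441%, 95% Wilson interval 0.0778 to 2.45), against 2.53% of the 4272 genes with 3 to 8.

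Some genes of the set were close neighbours without common intervals. On the plus strand of chromosome 17, ENSRNOG00000065205 (11 intervals), ENSRNOG00000063205 (11) and ENSRNOG00000068835 (16) followed each other at distances of 85.1 and 113 kb. On the minus strand of chromosome 7, ENSRNOG00000068431 (16) and ENSRNOG00000023781 (17) were 57.2 kb apart. ENSRNOG00000010680 (15) and ENSRNOG00000013917 (12) on opposite strands of chromosome 2 were 2.33 kb apart. In all, 7 pairs of genes of the set lay within 250 kb of each other without overlap, and the genes named on chromosome 17 enter several of them. No such count was made for the other genes, so it does not tell whether the set is clustered.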

How the data were processed

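The authors' deposited table lists m6A intervals for the whole series in 5 columns, per the file headers: chromosome, start, end, Ensembl gene ID and gene strand. Start and end are positions in bp, with no count, height or p-value. Reads were processed with HISAT2, per the submitters' processing notes. The peak caller, threshold, annotation and pooling are not stated by the sources used here. Depth is unknown, and precision is given by 95% Wilson intervals for shares (beside the rule of 3 counts for a share of 0), normal intervals for mean positions and 95% binomial order-statistic intervals for medians, over genes or assignments.

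Rows were counted per gene ID (Python 3.11.15, pandas 2.3.3, numpy 2.4.6, scipy 1.17.1, matplotlib 3.10.9). An interval listed under several genes counted once for each. Starts were read as counting from 0. Span, density, widths, gaps and strand-oriented positions were computed per gene, and the functions were checked on simulated data. No test was run. The genes, measures and lists were chosen with earlier results of these data known. Named genes are the 5 with most intervals, 3 largest and 3 smallest spans, 2 highest and 2 lowest positions, and 2 lowest whole-step shares; genes named for shared intervals, as neighbours or for a single run were added after their values were seen. Alternatives changed the interval filters, joining, limits and span.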

Additional observations from a re-analysis of the deposited data

How the results depend on the processing

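Of 64 values recomputed under 10 alternatives (9 planned, 1 chosen after seeing the data), 49 values of the set stayed within their main 95% interval, 12 moved outside it with the same order of the sets or a tie, and 3 changed the order. The density changed order in genes spanning at most 50 kb, at 0.578 per kb against 0.493. The shared share changed order in the same genes, at 15.6% against 18.5%, and with a lower limit of 15 intervals, at 13.4% against 17.0%. It moved to 20.5% with intervals up to 100 bp apart joined before genes were chosen anew (42 genes) and to 19.3% with identical lists counted once. The median span moved to 40.1 kb with intervals of 1 gene only and, by construction, to 24.3 kb in genes spanning at most 50 kb. The median width moved to 325 bp after joining, 300 bp after joining and choosing anew, and 275 bp without 50 bp widths. The whole-step share moved to 88.3% after joining, 89.0% with a lower limit of 9, 93.6% with a limit of 15 and 93.5% in genes spanning at most 50 kb, and was above that of the other genes under all 9 alternatives that recomputed it. On X, the share was 0.441% with a lower limit of 9 and 0 under the other alternatives that recomputed it. The mean position moved to 0.466 in genes spanning at most 50 kb, against 0.549 in the others. These counts judge the set alone, and the other genes moved too. With only whole-step widths their median density was 0.559 per kb (0.195 in the set, so that the difference was -0.364 instead of -0.0685) and their median span 6.10 kb (54.0 kb in the set). Against genes with 6 to 10 intervals, the set's span stood beside 27.9 kb, its shared share was 2.33 percentage points higher instead of 5.73, and its position differed by -0.0225. Where the alternative does not itself set the value, the cause was not tested. No paired analysis was possible because no column belongs to a sample, and replicates could not be left out either.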
